A study of Mus musculus with 12 samples.

Results

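The 7 genes described here are the 4 calcium/calmodulin-dependent protein kinase II (CaM kinase II) genes Camk2a, Camk2b, Camk2d and Camk2g, the 2 genes of its protein inhibitors, Camk2n1 and Camk2n2, and Slc6a7, which lies next to Camk2a on the same chromosome. They were taken by symbol from a table of 32494 genes, and all 7 had a row and a mean level above the minimum used for fitting. The RNA came from the hypothalamus of 12 male mice, all with floxed Smc3 alleles and all given tamoxifen, taken 5 weeks after that treatment (age 8 weeks in the labels, without the step it refers to). The 7 mice called WT lacked the transgene Camk2a-cre/ERT2, and the 5 called cKO carried it, so that a tamoxifen-activated recombinase is made under control of Camk2a sequence in them, which is active mainly in excitatory forebrain neurons. Sample titles of both groups carry the word control. The series compared the groups to learn what loss of Smc3, which encodes a subunit of the cohesin ring, does in adult forebrain neurons. Camk2a and Slc6a7 were picked because of the transgene and because the difference of Slc6a7 between the groups was already known, so differences between WT and cKO are given for the 7 genes as values, without a test.

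CaM kinase II is a ring of many kinase subunits that calcium-loaded calmodulin switches on and that can then phosphorylate itself and stay active after calcium has fallen. The alpha subunit (Camk2a) is the classical kinase of excitatory forebrain synapses, where it binds NMDA receptors during synaptic strengthening, and the beta subunit (Camk2b) also bundles actin. The delta (Camk2d) and gamma (Camk2g) subunits are made in many tissues besides brain. The Camk2n1 and Camk2n2 proteins are small, bind the activated kinase and block it. Slc6a7 encodes a transporter of the amino acid L-proline found in glutamatergic nerve endings.

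Libraries held 17.1 to 24.0 M reads, except WT 1 with 68.7 M. Levels are normalized CPM, reads of a gene scaled to the size of the library. Smc3, the floxed gene, went against the group labels. Its level was 76.8 to 85.7 CPM in the libraries labelled WT (81.6 ± 3.14, SD, n = 7) and 116 to 144 CPM in those labelled cKO (131 ± 10.3, SD, n = 5). The difference was 0.67 on the log2 scale (SE 0.05), with an adjusted p-value of 3.06e-05 in limma. These reads are counted over the whole gene, and the labels do not say which exons are floxed. WT and cKO therefore stand below for libraries labelled so, and all directions are between labels. Oxt, which encodes the hypothalamic hormone oxytocin, was between 0.28 and 2.33 CPM in WT 4, WT 5, cKO 12 and cKO 13. In the other 8 it was between 69.5 and 348 CPM, so the 4 were low in this marker of the labelled tissue. Avp, another hypothalamic marker, was also lowest in these 4, at 0.793 to 6.46 CPM, against 29.0 to 125 CPM in the other 8. The remaining hypothalamic markers were mixed. Fezf1 and Hmx2 reached down to 0.05 CPM in WT, and Hcrt to 0.37 CPM. Sim1 was at 10.9 CPM or more in every WT and 15.4 CPM or more in every cKO library. Pmch was at 42.4 CPM or more in every cKO library, and in WT it ran from 1.03 to 138 CPM. The mean log2(CPM + 1) of 11 hypothalamic markers, Oxt among them, was 2.26 to 3.27 in the 4 libraries low in Oxt and 3.44 to 5.13 in the other 8. Camk2a was lowest in these 4 (482 to 515 CPM, against 560.2 to 791 in the other 8) and Camk2g highest (284 to 331 CPM, where the other 8 reached at most 283.6). The members' group differences and correlations and the abundance order are therefore also given without them. So are the calls in the lists, other than that of hypothalamic markers, which holds Oxt itself.

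The 2 inhibitor genes are shown by their coding sequences because their products block the same kinase while only Camk2n1 had a lower mean in cKO. Both are from GENCODE M21 on GRCm38, 5′ to 3′ without the stop codon. The Camk2n1 sequence spans 2 coding exons at chr4:138455186-138456785 (plus strand), and that of Camk2n2 spans 2 at chr16:20620176-20621194 (minus strand). Capitals mark the longest stretch that is identical in the alignment of the pair.
Camk2n1: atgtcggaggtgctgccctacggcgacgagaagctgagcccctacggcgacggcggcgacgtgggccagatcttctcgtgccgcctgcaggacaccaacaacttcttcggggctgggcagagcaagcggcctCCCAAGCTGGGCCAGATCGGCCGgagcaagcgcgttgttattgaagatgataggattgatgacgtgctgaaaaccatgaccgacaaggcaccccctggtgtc
Camk2n2: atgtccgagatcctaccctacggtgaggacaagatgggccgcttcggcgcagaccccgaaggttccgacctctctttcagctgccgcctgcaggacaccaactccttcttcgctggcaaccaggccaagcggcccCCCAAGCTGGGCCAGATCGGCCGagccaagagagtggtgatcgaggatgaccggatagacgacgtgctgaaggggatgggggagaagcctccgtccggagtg
Of 237 aligned columns 167 (70.5%) held the same base, and the marked run is 23 bases long. Over all 71 annotated transcripts of the 7 genes, 0 of the 21 gene pairs shared any stretch of 50 bases, and the longest run shared between the longest transcripts of any pair was 34 bases. The read length is not given in the sources used here, so how often a read could fit 2 members was not measured.

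The group means of the 4 kinase genes lay close together. Camk2a was at 482 to 791 CPM in WT, with a median of 569.7, and at 503, 515, 583, 644 and 668 CPM in cKO. The cKO values all lay inside the WT range, and WT 11 was the highest of all 12. The means were 596 ± 113 CPM (SD, n = 7) and 582 ± 73.8 CPM (SD, n = 5), a difference of -0.02 (SE 0.12) on the log2(CPM + 1) scale. The gene whose regulatory sequence drives the recombinase therefore had no difference larger than the spread between mice.

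Among the 4 kinases, Camk2b varied least between mice. It was at 547 to 611 CPM in WT, with a median of 598, and at 543, 549.7, 552, 562 and 598 CPM in cKO. All 5 cKO values were below the WT median and 1 was below the WT minimum, and the log2 difference was -0.06 (SE 0.04). The ranges overlapped, and the coefficient of variation was 4.48% in WT against 18.9% for Camk2a.

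Camk2d was at 193 to 245 CPM in WT (median 213) and at 206, 206, 208, 218 and 226 CPM in cKO, a log2 difference of -0.01 (SE 0.05). Camk2g was at 215 to 288 CPM in WT (median 277) and at 247, 248, 256, 295 and 331 CPM in cKO, a log2 difference of 0.03 (SE 0.09). In both genes the groups overlapped. Camk2g spread more in cKO, where cKO 12 and cKO 13 were above every WT mouse and the other 3 below the WT median. Without the 4 libraries low in Oxt the log2 difference of Camk2g was -0.06 (SE 0.08). It was -0.01 for Camk2a, -0.08 for Camk2b and 0.00 for Camk2d in the same 8 libraries. When the thalamic score, described below with Camk2n1, entered the fit, the log2 differences were 0.22 (SE 0.15) for Camk2a, -0.07 (SE 0.06) for Camk2b, 0.10 (SE 0.06) for Camk2d and -0.19 (SE 0.09) for Camk2g, so 3 of the 4 turned sign. The 4 kinase genes together took 1664 ± 124 CPM (SD, n = 7) in WT and 1631 ± 68.0 CPM (SD, n = 5) in cKO, and in the 8 libraries with Oxt 1719 ± 99.1 CPM (n = 5) and 1665 ± 67.0 CPM (n = 3).

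Of the inhibitors, Camk2n1 had the lower mean in cKO and Camk2n2 did not. Camk2n1 was at 650.0 to 1003 CPM in WT, with a median of 762, and at 541, 565, 629, 648 and 650.2 CPM in cKO. In 4 of 5 cKO mice the value was below the lowest WT mouse, and the highest cKO value was just above it, so the ranges overlapped narrowly. The means were 801 ± 141 CPM (SD, n = 7) and 607 ± 50.5 CPM (SD, n = 5), a ratio of 0.757 and a log2 difference of -0.39 (SE 0.11). Without the 4 libraries low in Oxt it was -0.36 (SE 0.15). Camk2n2 was at 168 to 214 CPM in WT (median 199.6) and at 198, 198, 200.4, 210.4 and 222 CPM in cKO, a log2 difference of 0.07 (SE 0.06) with overlapping ranges, and of 0.05 (SE 0.07) without those 4 libraries. The log2 ratio of Camk2n1 to Camk2n2 within a library was 2.02 ± 0.29 in WT (n = 7) and 1.56 ± 0.17 in cKO (n = 5). Without the low-Oxt libraries it was 2.05 ± 0.35 (n = 5) and 1.64 ± 0.11 (n = 3).

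Genes that mark the thalamus, which borders the hypothalamus, differed between the groups together with Camk2n1. All 8 marker genes of that list (Tcf7l2, Lef1, Rora, Prkcd, Gbx2, Ntng1, Plekhg1 and Rgs16) were detected and none was at 0 in all libraries, and 5 of the 8 fell in cKO by limma, where 7.6% of all 15359 fitted genes fell. In the 8 libraries with Oxt 1 of the 8 genes fell, where 948 of 15364 fitted genes fell. The median log2 difference of the 8 markers was -0.43 there, against -0.65 in all 12. Their summed level was 748 to 1449 CPM in WT and 467 to 827 CPM in cKO. The score of the list, the mean of log2(CPM + 1) over its genes, was 6.63 ± 0.386 in WT (n = 7) and 5.93 ± 0.373 in cKO (n = 5). After removal of each group's mean, Camk2n1 followed this score over the 12 mice with a Pearson r of 0.928 and a Spearman rho of 0.965, and with an r of 0.945 without the 2 mice farthest from the median. Within WT alone (n = 7) r was 0.977, and over the 8 libraries with Oxt it was 0.979. With the score as a covariate the log2 difference of Camk2n1 between groups was -0.03 (SE 0.07), against -0.39 without it. That of Camk2n2 was 0.003 (SE 0.08) in the same fit, against 0.07. The score itself differed between the groups, so this fit cannot tell the label apart from what the score measures. Of 11 hypothalamic markers 9 had positive log2 differences, with a median of 0.56, but many varied widely. Pmch was at 1.27 (SE 0.84) and Oxt at -0.60 (SE 1.69). By limma 1 rose (9.09%), Sim1 (0.56, SE 0.14, adjusted p-value 0.0206), and 0 fell. That share is near the 6.54% of all fitted genes that rose. Their score was 3.66 ± 0.942 in WT and 4.14 ± 0.982 in cKO, a difference smaller than either SD. In bulk tissue, fewer cells of a type and less RNA per cell cannot be told apart.

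Slc6a7 was the member with separate groups. It was at 113 to 136 CPM in WT, with a median of 121, and at 163, 166, 166, 167 and 177 CPM in cKO. Every cKO mouse was above every WT mouse. The means were 123 ± 8.92 CPM (SD, n = 7) and 168 ± 5.56 CPM (SD, n = 5), a ratio of 1.37 and a log2 difference of 0.45 (SE 0.05), from 2435 to 8120 reads per library. Ranges that do not overlap were thus found for 1 of the 7 genes. Over all fitted genes the share was 6.73% (3.52% higher in cKO and 3.2% lower), from which nothing is read here because the member was chosen on this contrast.

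Over all 12 mice Slc6a7 had low correlations with the markers of regions and cell types within groups. Its r with the 8 marker scores, group means removed, lay between -0.276 (striatum) and 0.254 (microglia and endothelium), and it was 0.0188 with the thalamic score. Over the 8 libraries with Oxt these values were more extreme, from -0.889 (striatum) to 0.826 (microglia and endothelium), with 0.297 for the thalamus. The striatal score was 3.24 ± 0.107 in WT and 3.16 ± 0.0798 in cKO, that of microglia and endothelium 4.89 ± 0.101 and 4.98 ± 0.0510, and their part in the level of Slc6a7 was not tested. The log2 difference of Slc6a7 was 0.46 (SE 0.07) when the thalamic score entered the fit, 0.45 (SE 0.05) with the cortical and hippocampal score, and 0.41 (SE 0.06) without the 4 libraries low in Oxt. Leaving out each mouse in turn gave 0.43 to 0.48. Relative to Camk2a in the same library, its log2 ratio was -2.26 ± 0.25 in WT and -1.79 ± 0.22 in cKO, and without the low-Oxt libraries -2.35 ± 0.23 (n = 5) and -1.93 ± 0.11 (n = 3).

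**Figure D1:**
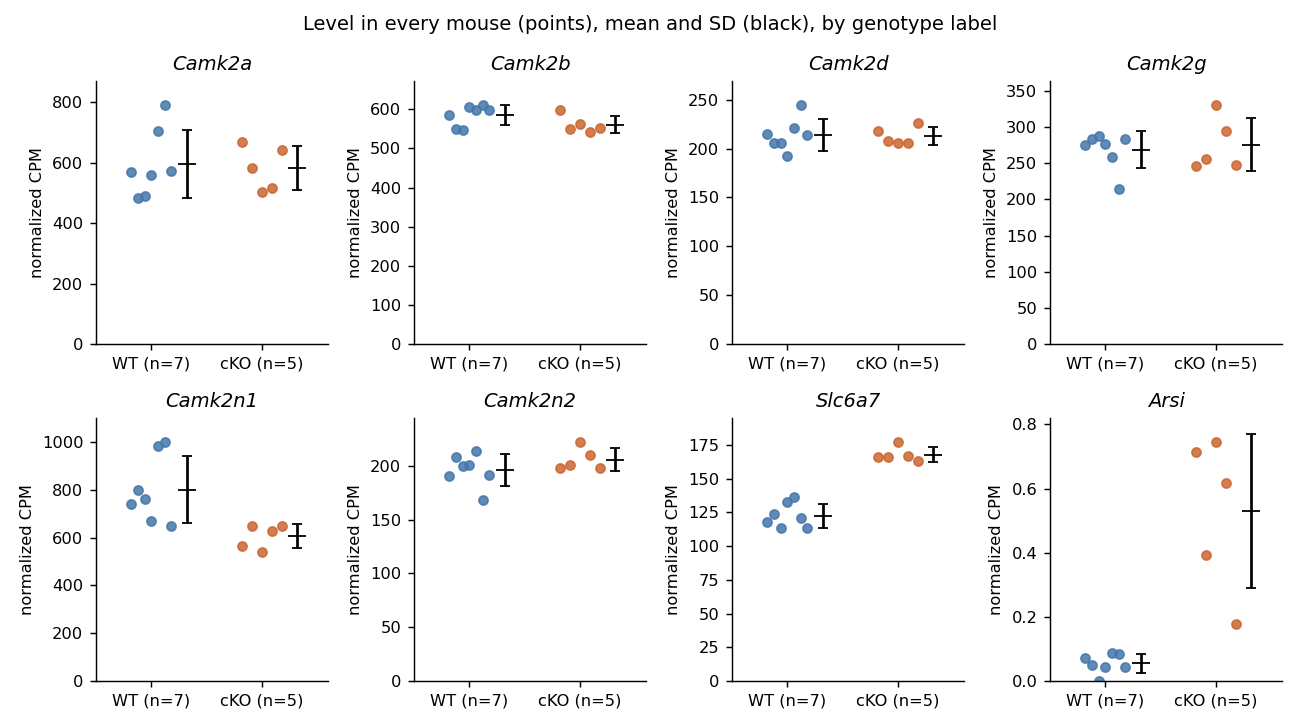
Normalized CPM of the 7 genes and of Arsi in each of 7 WT and 5 cKO libraries (points), with the mean and SD of each group in black and every axis starting at 0. Slc6a7 and Arsi have no cKO point within the WT range, Camk2n1 is shifted down in cKO, and the other 5 genes overlap.

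Which genes around Camk2a share the pattern of Slc6a7 was asked over the 8 protein-coding genes on either side in the order of a RefSeq table (GRCm38.p6). A separation of the groups was found for the gene directly on the other side of Camk2a. Arsi, which encodes a member of the arylsulfatase family, was nearly undetected in WT. It had 0, 1, 1, 1, 2, 2 and 5 reads per library there, or at most 0.0865 CPM. In cKO it had 3 (cKO 14), 8, 13, 16 and 17 reads, or 0.178, 0.392, 0.617, 0.746 and 0.713 CPM in cKO 14, 9, 13, 12 and 8. All 5 cKO mice were above all 7 WT mice.

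Pooled over mice, Arsi had 12 reads in WT and 57 in cKO, and the ratio scaled to library size was 9.29 (95% interval 4.93 to 19.0, exact, counting error only). Its mean was below the 1 CPM minimum, so it was not in the main fit. Over all 31802 genes above 0, limma gave a log2 difference of 0.52 (SE 0.08, adjusted p-value 0.00720) on the log2(CPM + 1) scale, which understates the change of so low a gene. Arsi was singled out after its values were seen. The difference in mean CPM was 0.475, it was 0.361 without the 4 libraries low in Oxt (5 WT and 3 cKO left), and it ran from 0.421 to 0.563 when each mouse was left out. The absolute level stayed low, and it rested on as few as 3 reads in a cKO library.

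Beyond the direct neighbours no further gene passed the limma test without covariates. Of the other 14 genes, 10 were above the CPM minimum, and limma called 0 of them at an adjusted p-value of 0.05, where 14.1% of all fitted genes were called (6.54% higher, 7.6% lower). Unadjusted p-values were under 0.05 for 2, Ndst1 and Slc26a2, and edgeR and DESeq2 on recovered reads also called 0. Their log2 differences ran from -0.19 (SE 0.08, Slc26a2, a sulfate transporter) to 0.23 (SE 0.14, Cd74, the invariant chain of class II antigen presentation), with a median of 0.03. Without the low-Oxt libraries the same 10 ran from -0.15 to 0.14, and limma called 0, where it called 1580 of 15364 fitted genes. With the thalamic score in the fit 1 passed, Csf1r (0.20, limma adjusted p-value 0.0494), where 515 of 15359 fitted genes were called. On Arsi's side, Tcof1 was at 27.9 ± 1.01 CPM (SD, n = 7) in WT and 28.9 ± 4.09 CPM (SD, n = 5) in cKO, Rps14 had a log2 difference of 0.09 (SE 0.07), Ndst1 of -0.10 (SE 0.04), Synpo of 0.09 (SE 0.07) and Rbm22 of -0.06 (SE 0.04). On Slc6a7's side, Pdgfrb had a log2 difference of 0.03 (SE 0.07), Csf1r of 0.09 (SE 0.05) and Hmgxb3 of 0.01 (SE 0.05). Myoz3, Cdx1, Gm52351 and LOC108168367 had means under 1 CPM and were not in the main fit. Camk2a, between the pair that differed, had the overlapping values given above.

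**Figure D2:**
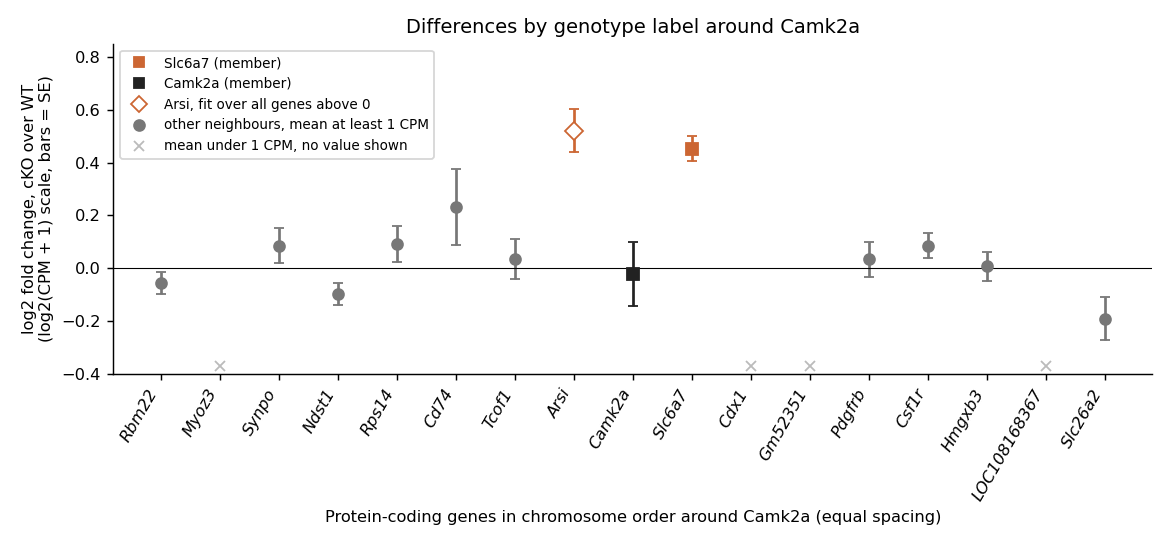
Log2 difference between cKO and WT (log2(CPM + 1) scale, bars are SE) for the protein-coding genes around Camk2a in chromosome order with equal spacing. Arsi (0.52) and Slc6a7 (0.45) stand on either side of Camk2a (-0.02), and the 10 other fitted neighbours lie between -0.19 and 0.23. The Arsi value is from the fit over all genes above 0. Its level is under 1 CPM, where this scale understates a change, so its size cannot be set against that of Slc6a7.

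How the 7 genes rank by abundance was asked in the WT mice, as CPM per kilobase of all annotated exons merged. By this length the inhibitors had the highest means, with Camk2n1 at 180.2 ± 31.6 CPM per kilobase (SD, n = 7) and Camk2n2 at 152 ± 11.6. Camk2a followed at 79.9 ± 15.1, Camk2b at 64.1 ± 2.87, Camk2g at 42.0 ± 4.01, Slc6a7 at 35.6 ± 2.59 and Camk2d at 9.51 ± 0.720. Each adjacent pair in this order was compared within mice by a two-sided exact sign-flip permutation test, adjusted over 6 pairs, for which 7 mice allow a smallest p-value of 0.0156. The steps past 0.05 were 4, from Camk2n2 to Camk2a (log2 ratio 0.94), Camk2a to Camk2b (0.30), Camk2b to Camk2g (0.62) and Slc6a7 to Camk2d (1.90), each in 7 of 7 mice and with an exact adjusted p-value of 0.0234. The steps from Camk2n1 to Camk2n2 (0.23, higher in 5 of 7 mice, exact adjusted p-value 0.0625) and from Camk2g to Slc6a7 (0.24, higher in 6 of 7, exact adjusted p-value 0.0563) were not past 0.05. Without WT 4 and WT 5 the 4 steps past 0.05 kept their direction in 5 of 5 mice, with log2 ratios of 0.81, 0.37, 0.69 and 1.90, but 5 mice allow no exact p-value under 0.0625. The other steps were then 0.26 (3 of 5 mice) and 0.18 (4 of 5).

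The order among the kinases depended on the length, and so did the size of the step from Camk2n2 to the kinases. Merged exons of Camk2d add up to 22.5 kilobases over 28 annotated transcripts, of which the longest has 5.52. Per kilobase of the longest transcript, Camk2n2 was above Camk2b by a log2 ratio of only 0.10, in 6 of 7 mice and not past 0.05 (exact permutation adjusted p-value 0.169). By the same length Camk2b (142 ± 6.36) stood above Camk2a (119.95 ± 22.7), and Camk2d (38.7 ± 2.93) above Slc6a7 (36.4 ± 2.65), all in CPM per kilobase in WT (SD, n = 7). Neither of these steps was past 0.05 (exact permutation adjusted p-values 0.0938 and 0.234). By merged exons Camk2a made up 40.6 ± 4.60% of the 4 kinases' summed level per kilobase in WT and 40.6 ± 3.88% in cKO. By longest transcripts the shares of Camk2a were 31.9 ± 3.93% and 31.96 ± 3.21%. Under either length the groups overlapped in each of the 4 shares. Without the low-Oxt libraries the shares of Camk2a by merged exons were 42.2 ± 4.42% (n = 5) and 43.2 ± 1.41% (n = 3).

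**Figure D3:**
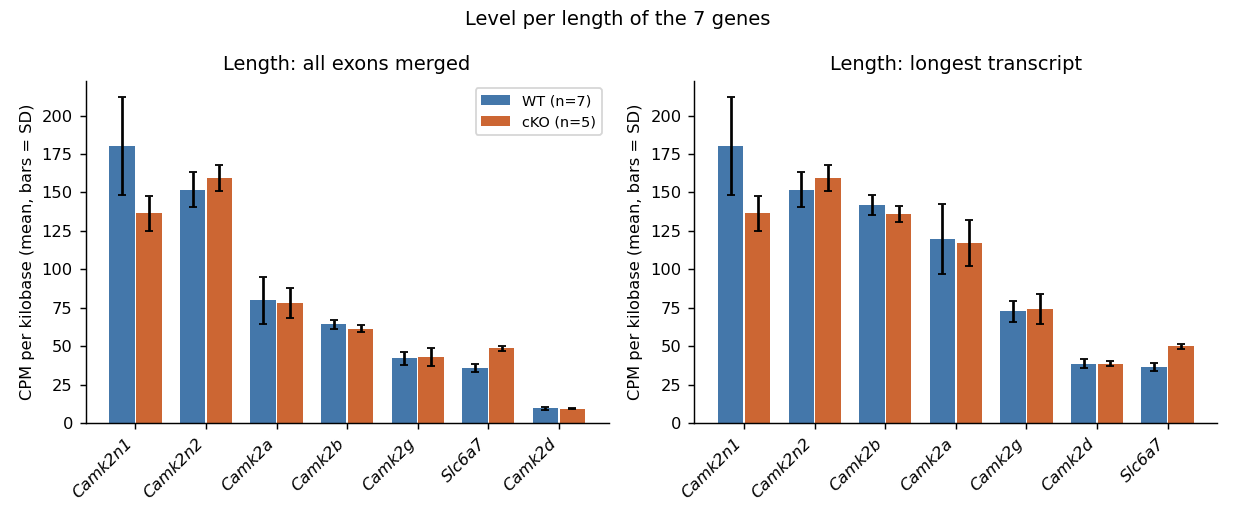
Mean CPM per kilobase (bars start at 0, error bars are SD) of the 7 genes in WT (n = 7) and cKO (n = 5), with all annotated exons merged (left) or the longest transcript (right) as the length. Camk2n1 and Camk2n2 are highest in both panels, and Camk2d moves from 9.51 to 38.7 in WT with the length used.

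Within groups, the kinase genes did not rise and fall as a set. The following values are correlations over the 12 mice with group means removed, given as descriptions, and all values of a mouse share its library. Camk2a rose with Camk2d (r = 0.819, rho = 0.874, r = 0.644 without the 2 mice farthest out in Camk2a) and with Camk2b (r = 0.722, rho = 0.699, 0.689 without those 2). It ran opposite to Camk2g (r = -0.873, rho = -0.874, -0.831 without those 2). Over the 8 libraries with Oxt these r were 0.846 with Camk2d, 0.433 with Camk2b and -0.914 with Camk2g. Camk2g ran with Camk2n2 (r = 0.773, rho = 0.727) but had an r of 0.425 without the 2 mice farthest out and of 0.679 over the 8 libraries. Camk2a and its neighbour Slc6a7 had an r of 0.151, and of 0.193 over the 8 libraries.

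Marker scores of neighbouring tissue and of glia moved with these courses. Camk2a had an r of 0.719 with markers of cortex and hippocampus (rho 0.832), which was 0.440 without the 2 mice farthest out in the score, and of -0.799 with 4 astrocyte markers (rho -0.755). Camk2g had an r of 0.805 with the astrocyte score (rho 0.860) and of -0.793 with the cortical score (rho -0.888). Camk2b had an r of -0.811 with 4 oligodendrocyte markers (rho -0.797). The 4 low-Oxt libraries had the highest oligodendrocyte scores (9.04 to 9.26, against 8.05 to 8.80 in the other 8), 3 of the 4 had the highest astrocyte scores, and the correlations follow this split in part. Over the 8 libraries with Oxt, Camk2a had an r of 0.501 with the cortical and -0.686 with the astrocyte score. Camk2g had 0.761 with the astrocyte and -0.633 with the cortical score, and Camk2b had -0.608 with the oligodendrocyte score. Larger over these 8 were the r with the thalamic score, 0.834 for Camk2a and -0.818 for Camk2g, against 0.556 and -0.732 over all 12. With the hypothalamic score the 8 gave -0.666 for Camk2a and 0.787 for Camk2g, against 0.574 and -0.491 over all 12. The cortical score was 2.46 ± 0.220 in WT and 2.45 ± 0.235 in cKO, and the summed level of its 8 genes, of which Emx1 had a mean under 1 CPM, was 56.9 to 108 CPM and 46.3 to 89.8 CPM. The astrocyte score was 7.33 ± 0.178 and 7.45 ± 0.168, and the summed level of its 4 genes was 816 to 980.4 CPM and 905 to 977 CPM. What part these cells had in the levels was not tested.

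**Figure D4:**
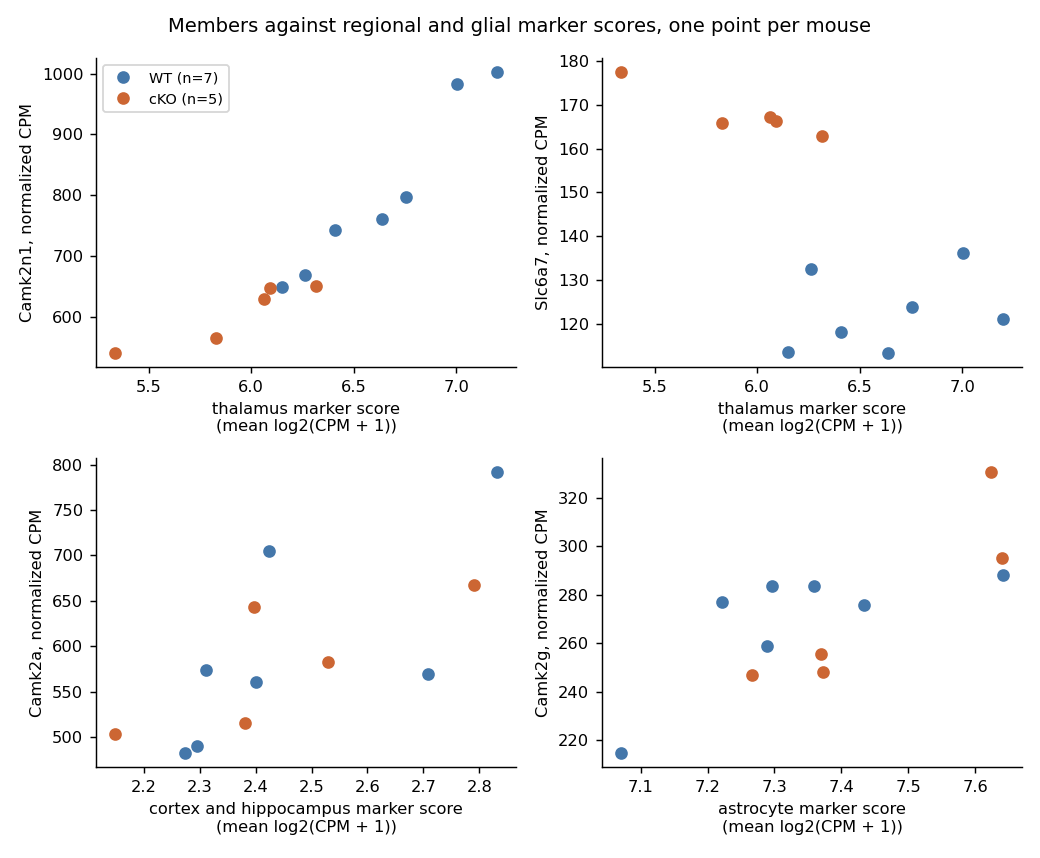
Normalized CPM of 4 members against marker scores (mean log2(CPM + 1) of the list), with a point per mouse in WT (n = 7) and cKO (n = 5). Camk2n1 follows the thalamic score across both groups, Slc6a7 lies in 2 levels by group at any score, Camk2a rises with the cortical score, and Camk2g rises with the astrocyte score.

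The genes whose residual course over the 12 mice was most like that of each member were named by Pearson r. Each is a top 3 picked from all 15359 fitted genes over few mice, so high r values come in part from that choice. For Camk2a they were Eps8, a regulator of actin (r = 0.966), Camkv, a kinase-like calmodulin-binding protein without kinase activity (0.962), and the small GTPase gene Rem2 (0.961). Nearest to Camk2n1 were Tanc1, a postsynaptic scaffold (0.971), Nsmf, a messenger from NMDA receptors to the nucleus (0.965), and Epn3 (0.961). Camk2g was most like Nxph4 (0.984), Hpca, the calcium sensor hippocalcin (0.978), and Ptpre (0.969). Nearest to Camk2b were Megf6 (0.956), Cd55 (0.942) and Elapor1 (0.941), and to Camk2d Ccdc50 (0.958), Mex3b (0.949) and Hdac9 (0.948). Camk2n2 was most like Rasl10a (0.937), Pmepa1 (0.937) and Rhbdl3 (0.927). The closest to Slc6a7 were looser, with Wbp1l (0.906), 9330159F19Rik (0.885) and Unc45a (0.869). Over the 8 libraries with Oxt the r of the same 3 genes was 0.922 to 0.944 for Camk2a, 0.819 to 0.949 for Camk2b, 0.955 to 0.966 for Camk2d and 0.980 to 0.996 for Camk2g. It was 0.976 to 0.985 for Camk2n1, 0.913 to 0.932 for Camk2n2 and 0.848 to 0.939 for Slc6a7.

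Other genes of calcium and calmodulin signalling were compared by limma, with adjusted p-values over all 15359 fitted genes, of which 14.1% were called. Of 11 calmodulin and further CaM kinase genes, 0 rose and 2 fell in cKO, with a median log2 difference of -0.10 against 0.01 for all fitted genes. Camkk2, a kinase that activates CaM kinases I and IV, was at 79.9 ± 4.28 CPM in WT (SD, n = 7) and fell to 69.3 ± 4.58 in cKO (SD, n = 5), with no overlap (log2 difference -0.20, SE 0.05, limma adjusted p-value 0.0186). Camk1d fell by a log2 difference of -0.22 (SE 0.07, limma adjusted p-value 0.0486), and it was not past 0.05 in the fits without WT 1, 4, 5, 7, 11 or 15 or without cKO 8, 9 or 14. Once the thalamic score was added to the fit, 0 of the 11 passed, with log2 differences of -0.13 for Camkk2 (limma adjusted p-value 0.262) and -0.19 for Camk1d (0.290). In that fit only 515 of all 15359 genes were called, against 2172 without the score. Without the low-Oxt libraries Camkk2 and Camk1d both passed, at -0.23 (limma adjusted p-value 0.0389) and -0.25 (0.0285). There 1580 of 15364 fitted genes were called. Of 4 genes for small calmodulin-binding proteins, Pcp4 (Purkinje cell protein 4) fell from 284 ± 82.6 to 149.8 ± 27.7 CPM (log2 difference -0.88, SE 0.19, limma adjusted p-value 0.0107), and Nrgn, Gap43 and Pcp4l1 did not pass. Once that score was added, 0 of the 4 passed, and Pcp4 had a log2 difference of -0.52 (limma adjusted p-value 0.208). Without the low-Oxt libraries it was -0.83 (limma adjusted p-value 0.0191).

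Of 9 phosphatase genes, which remove phosphates that kinases add, 1 (11.1%) rose and 0 fell, a share near that of all fitted genes (14.1%). Ppp3cb, a catalytic subunit of the calcium-activated phosphatase calcineurin, rose from 260.4 ± 9.63 to 288 ± 13.97 CPM (log2 difference 0.14, SE 0.04, limma adjusted p-value 0.0303). Without WT 1, WT 6, WT 15, cKO 8, cKO 13 or cKO 14 its adjusted p-value was 0.0505 to 0.0690, and it was 0.0796 without the libraries low in Oxt. The median of the list was 0.06.

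Of 18 genes for synaptic proteins that bind CaM kinase II, are its substrates or lie near it, mostly postsynaptic but with the presynaptic Syn1, 0 rose and 5 fell, where 7.6% of all fitted genes fell, with a median log2 difference of -0.14. They were Lrrc7, the scaffold densin (-0.54, SE 0.12, limma adjusted p-value 0.0123), Shank3, a scaffold (-0.44, SE 0.13, 0.0410), Grin2a, an NMDA receptor subunit (-0.41, SE 0.11, 0.0234), Kalrn, a guanine nucleotide exchange factor (-0.29, SE 0.08, 0.0287), and Grin1, the obligatory NMDA receptor subunit (-0.15, SE 0.04, 0.0250). The remaining 13, among them Grin2b, Gria2, Dlg4 and Arc, did not pass. The thalamic markers moved with this list too. With their score as a covariate 0 of the 18 passed in limma, where only 515 of all 15359 fitted genes were called, against 2172 without it. The log2 differences were then -0.15 for Lrrc7, -0.02 for Shank3, -0.23 for Grin2a, -0.13 for Kalrn and -0.13 for Grin1. Without the 4 libraries low in Oxt 2 passed, Grin2a (-0.47) and Gria1 (-0.22), where 1580 of 15364 fitted genes were called. In that setting the limma adjusted p-value was 0.0721 for Lrrc7, 0.239 for Shank3, 0.145 for Kalrn and 0.0925 for Grin1. Shank3 was also not past 0.05 in the fits without WT 1, 4, 7 or 11 or without cKO 8, 9, 12 or 13, nor Kalrn without WT 1 or without cKO 9, 12, 13 or 14. The same held for Grin2a without cKO 9 and for Grin1 without cKO 8. Leaving out WT 1, cKO 9, cKO 12 or cKO 13 left 3, 2, 3 and 3.

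Of 12 fitted Slc6 transporter genes other than Slc6a7, 1 rose and 1 fell, which is 16.7% against 14.1% of all fitted genes. Slc6a15, a transporter of neutral amino acids, rose from 67.0 ± 4.89 to 78.7 ± 3.93 CPM (log2 difference 0.23, SE 0.05, limma adjusted p-value 0.0145), with no overlap of the groups. Without the 4 libraries low in Oxt its limma adjusted p-value was 0.0589, and with the thalamic score as a covariate the log2 difference was 0.18 (limma adjusted p-value 0.182). Slc6a6, the taurine transporter, fell from 131 ± 5.53 to 114 ± 6.07 CPM (-0.21, SE 0.04, limma adjusted p-value 0.00882), also with no overlap. Over the 8 libraries with Oxt 0 of the 12 rose and 2 fell, Slc6a6 (-0.24) and Slc6a8 (-0.42), where 632 of 15364 fitted genes rose and 948 fell. The median of the 12 was -0.12. The dopamine transporter Slc6a3 was at 52.6 to 132 CPM in WT 1, WT 4, WT 5, cKO 12 and cKO 13 and at 0.826 to 1.78 CPM in the other 7 libraries, so its values fell apart within both groups.

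**Figure D5:**
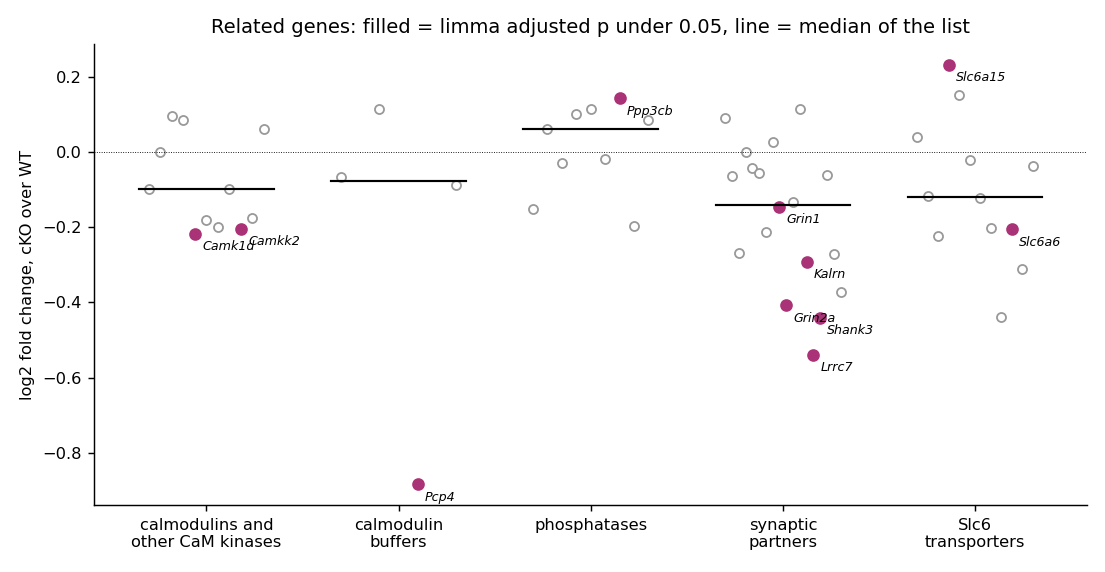
Log2 difference between cKO and WT of each fitted gene in 5 lists of related genes, with filled points for limma adjusted p-values under 0.05 and a line at the median of each list. The 5 called synaptic genes are all below 0, Pcp4 is lowest at -0.88, and Slc6a15 at 0.23 is the highest called gene.

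The authors' deposited table holds their own fold changes for the same contrast. For Slc6a7 the authors' deposited table has a log2 fold change of 0.45, for Camk2n1 of -0.40 and for Arsi of 3.11. For the remaining members the log2 fold changes in the authors' deposited table lie between -0.06 (Camk2b) and 0.07 (Camk2n2).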

How the data were processed

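Hypothalamic RNA of 12 mice (7 WT, 5 cKO) was sequenced. The authors deposited normalized CPM, per the file name, for 32494 genes. STAR 2.7.9a, Subread and featureCounts are named in the submitters' processing notes, and build, annotation and strand setting are not given in the sources used here. In each library 100% of CPM values were whole multiples of a single step (relative tolerance 1e-04), so reads were recovered, and 0 columns were left unused. The authors' deposited table of their own test has log2 fold changes, log2 mean CPM, p-values and adjusted p-values, and only its log2 fold changes are printed.

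limma 3.58.1 (R 4.3.3; lmFit, eBayes with trend, no covariate) was fitted to log2(CPM + 1) of 15359 genes (mean CPM 1 or more), with Benjamini-Hochberg adjustment and a threshold of 0.05. On simulated counts for this contrast, it recovered 182 of 197 genes changed by 1 log2 unit (92.4%), with 8 false calls among 15294 genes. Only changes of that size were simulated, and each gene was drawn independently. These rates therefore do not cover smaller differences or variation that genes share between libraries. edgeR 4.0.16 and DESeq2 1.42.0 on recovered reads were alternatives, with 2097 and 2747 calls. Lengths came from GENCODE M21. Members and lists were chosen with earlier results of these data known. From lists, up to 4 called genes with the largest change were to be named; Grin1 beyond these 4, Arsi under the CPM minimum, and the unfitted or uncalled genes were named after their values were seen. Nothing in the labels says that mice come from separate litters or batches, and p-values measure the spread between these libraries.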

Additional observations from a re-analysis of the deposited data

Results flagged for a closer look

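Of 28 groups of values examined (the 7 genes, Smc3, Arsi, 4 marker scores and depth, in each group), 2 had a library far from the rest, where chance gives 1.4. Camk2g was at 215 CPM in WT 11, below the next WT library at 259 CPM. The same library was the highest of WT in Camk2a. WT 1 held 68.7 M reads, against 24.0 M in the next WT library.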

How the results depend on the processing

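No paired analysis was possible because WT and cKO share none of their mouse numbers. For the 7 genes, 150 of 154 alternative values lay within 1 SD between mice of the value given. The 4 that did not came from the thalamic score as a covariate, with log2 differences of 0.22 for Camk2a, 0.10 for Camk2d, -0.19 for Camk2g and -0.033 for Camk2n1. Leaving out each mouse gave -0.07 to 0.05 (Camk2a), -0.08 to -0.05 (Camk2b), -0.03 to 0.03 (Camk2d), -0.04 to 0.07 (Camk2g), -0.43 to -0.33 (Camk2n1), 0.04 to 0.09 (Camk2n2) and 0.43 to 0.48 (Slc6a7), so the sign of Camk2a, Camk2d and Camk2g was not fixed. The median log2 difference of all genes was 0.02 under median or quantile scaling, against 0.01.

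The number of called genes was 2172 and fell to 515 with the thalamic score (162 higher, 353 lower) and to 1158 without WT 1, with at most 2302 over the fits without a mouse. In median centring 1377 were higher and 1054 lower, against 1004 and 1168. Calls in the calmodulin and CaM kinase list (2) became 1 over all genes above 0, 1 in median centring, 0 with the thalamic score and 1 to 3 without a mouse (1 without WT 1, 4, 5, 7, 11 or cKO 8, 9, 14). The 1 call among the calmodulin buffers became 0 with the thalamic score. The 1 phosphatase call became 0 over all genes above 0, 0 without the low-Oxt libraries, 2 in DESeq2 (Ppp3cb higher, Ppp3cc lower) and 0 to 1 without a mouse (without cKO 14 another gene, Ppm1e, lower). The 5 synaptic calls became 3 over all genes above 0, 0 with the thalamic score, 8 with the cortical score, 8 in DESeq2, 2 without the low-Oxt libraries and 2 to 7 without a mouse. The 2 Slc6 calls became 1 with the thalamic score (Slc6a6; Slc6a15 was not past 0.05) and were 2 to 3 without a mouse. Neighbours of Camk2a past the threshold were 1 over all genes above 0 (Arsi), 1 in edgeR on those genes (Arsi, at an adjusted p-value of 0.00103) and, under the thalamic score, 1 (Csf1r, log2 difference 0.20, adjusted p-value 0.0494), and 0 in each fit without a mouse. The low-Oxt setting and edgeR over all genes above 0 were chosen after seeing the data. Of 495 alternative values of single genes outside the 7, 444 gave the same call, 50 were no longer past 0.05 and 1 newly was.

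With the longest transcript as length, the log2 ratio in WT was 0.36 for Camk2n2 over Camk2a (exact adjusted p-value 0.0703), -0.26 for Camk2a over Camk2b, 0.99 for Camk2g over Slc6a7 and -0.088 for Slc6a7 over Camk2d. Leaving out a WT mouse gave 0.20 to 0.29 for Camk2g over Slc6a7 (exact adjusted p-value 0.0375 without WT 11). Here only the length was altered, and for the other shifts the cause was not tested. A level of 3 reads, from 0.0436 to 0.178 CPM by library, limits Arsi.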

Other observations

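The table also lists Mir6982 and Mir7220, which GENCODE M21 places inside Camk2a, and they were looked at after the values of Arsi had been seen. Mir6982 had 3 to 9 reads per library in WT and 0 to 2 in cKO, without overlap in CPM (0.153 ± 0.0371, n = 7, against 0.0408 ± 0.0418, n = 5). Pooled reads were 30 and 4, a size-scaled ratio of 0.261 (95% interval 0.0668 to 0.740, exact, counting error only). edgeR over all genes above 0 gave it an adjusted p-value of 0.0673, and limma over those genes 0.0166. Mir7220 had 20 and 3 pooled reads, with overlapping groups. Libraries were made from isolated messenger RNA, so these reads are not a measure of the mature microRNAs. They lie within the transcribed unit of Camk2a, whose own level overlapped between the groups.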
